A study of Triticum aestivum with 4 samples.

Results

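AT1G04560, an AWPM-19-like protein, and COR413-PM1, a cold-regulated plasma membrane protein, were followed in the transcriptome of drought-stressed wheat. Both names come from Arabidopsis: they are the best protein match, at an E-value of up to 0.001, that the annotation of the study gives to assembled wheat transcripts. They are 2 of 10727 Arabidopsis genes matched in roots or leaves, and 18 transcripts (isotigs) in 14 isogroups carry their names, 12 of 32085 isotigs in roots and 6 of 19899 in leaves. An isogroup is a cluster of overlapping contigs that stands roughly for 1 gene, and its isotigs are the alternative paths through those contigs. No isotig carried either name at a weaker E-value, so none lay just outside the limit. The genes had been proposed with their read counts under drought known, and the counts below are therefore a description without a test.

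Plants of the bread wheat cultivar MGS1 Alianca were taken at the tillering stage, after 5 weeks of growth, with 3 seeds sown in each pot. Control plants were kept at 100% of field capacity. Drought plants received water to 75% of field capacity for 2 weeks and none for the following 3 weeks. Roots and leaves of each condition gave 1 library each, made from the pooled plants of a pot and sequenced on a Roche pyrosequencer, so the 4 libraries hold no replicates and the differences below have no replicate check. Roots and leaves of a condition can come from the same plants, and the tissues are then not independent of each other.

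AWPM-19 was first described in wheat as a small plasma membrane protein that accumulates with abscisic acid (ABA) and with freezing tolerance, and relatives of it in rice and Arabidopsis have been linked to ABA. COR413 proteins cross the membrane several times and form a plant-specific family with a plasma membrane branch (PM) and a branch in the inner envelope of the chloroplast (IM). They were described in wheat and Arabidopsis as genes induced by cold, and COR413-PM1 also responds to water deficit and ABA.

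Reads counted for Arabidopsis-matched genes, called gene reads here, numbered 108532 in control and 95923 in drought roots. In leaves they numbered 83357 in control and 62632 under drought. Each gene was counted by its isotig with most reads in each isogroup, so gene reads are not all the reads that match. Levels are given as reads per 100000 gene reads. At these depths 3 reads correspond to 2.76 and 3.13 per 100000 in control and drought roots and to 3.60 and 4.79 in control and drought leaves. Genes of photosynthesis used as leaf markers were measured for 11 of 12 in leaves, where none was at 0 in either library, and for 2 of 12 in roots. Root markers were measured for 7 of 12 in roots, where TIP2;3 went from 98 reads to 0 and MYB305 from 0 to 29, while the other 5 had fewer drought reads. The summed level of the leaf markers was 15528 per 100000 in control and 3139 in drought leaves, and that of the root markers was 543 in control and 76.1 in drought roots. In such pooled tissue, fewer cells of a type and less RNA per cell cannot be told apart.

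Among the assembled reads, AT1G04560 was found only in drought roots. In addition, 1 unassembled root read that matched it carries no library label. The 7 isotigs of AT1G04560 held 0 reads in control roots and 194 reads in drought roots. This is 202 per 100000 gene reads (95% exact binomial interval 175 to 233) in drought roots, while 0 reads in the control, taken as up to 3 reads, allows up to 2.76. Taking 3 reads for the control library gave a level at least 73.2-fold higher under drought, or 6.19 on the log2 scale. With the counting interval of the 194 drought reads this bound runs from 63.2 to 84.2. The median log2 ratio of all genes tested in roots was 0.02. All intervals and limits here cover counting error only.

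Of the 4785 root genes with at least 10 reads, 21.8% were at least 2-fold higher under drought and 25.0% at least 2-fold lower, and both named genes were among the former. An absence from the control library was rarer, with 60 genes, or 1.25%, in roots and 51 genes, or 1.72%, in leaves. All of these, AT1G04560 included, passed the minimum of 10 reads through the drought library alone. Among those of roots, AT1G04560 had the third highest number of drought reads, after AT3G15670, a late embryogenesis abundant (LEA) protein, with 320 and LEA14 with 275. SAG29, a senescence-associated sugar transporter, came next with 133 reads.

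**Figure D1:**
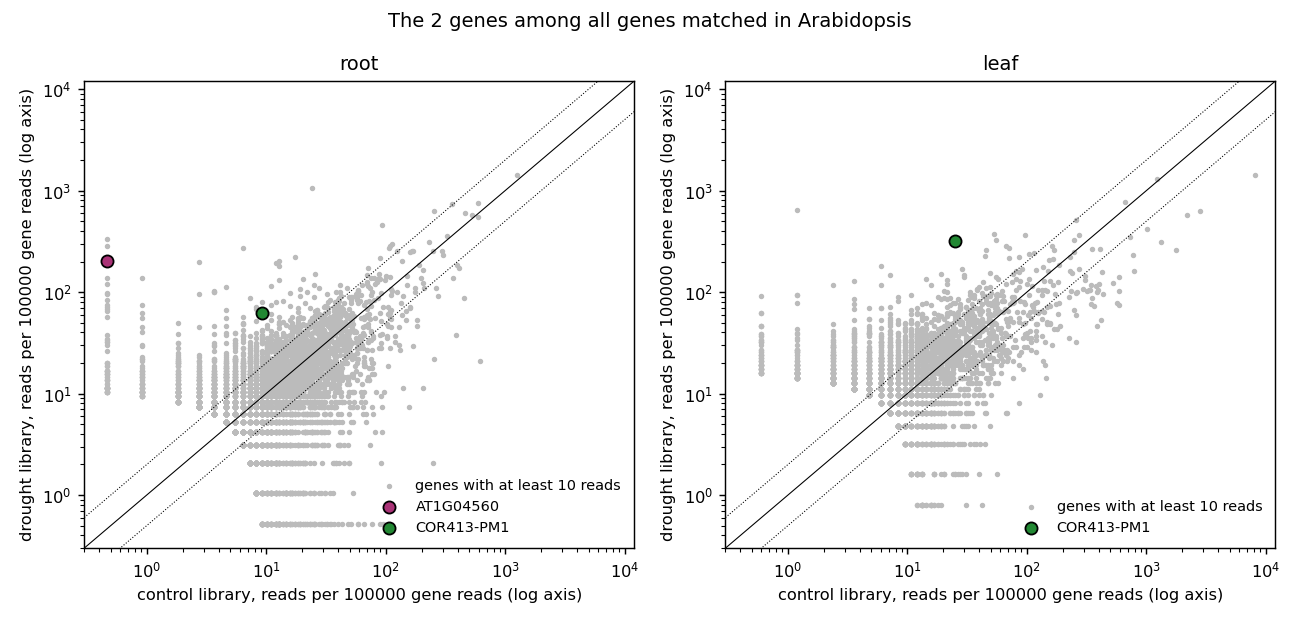
Reads per 100000 gene reads in the control library (x axis, log scale) and the drought library (y axis, log scale) for every gene with at least 10 reads, in roots and in leaves, with both named genes marked. A count of 0 is drawn at 0.5 reads. AT1G04560 lies at the left edge of the root panel with 0 control and 194 drought reads, and COR413-PM1 lies above the diagonal in both panels.

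In leaves no isotig had AT1G04560 as its best match, and no unassembled read (singleton) or isotig matched any protein of the AWPM-19 family (Pfam PF05512). A count of 0 gene reads, taken as up to 3 reads, allows up to 3.60 per 100000 in control and 4.79 in drought leaves. Leaf transcripts below those limits could have been missed at this depth. Roots and leaves were assembled separately, so levels in the 2 tissues are set side by side without a test.

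The 194 root reads came from 4 isogroups, none of which had a read in the control library. Isogroup02733 held 112 of them, or 57.7% (50.4 to 64.8), which is at least 37.9-fold higher than in the control when set against all isogroup reads. Isogroup03048 held 62 reads (at least 21.0-fold higher), isogroup03070 held 18 (at least 6.09-fold higher) and isogroup20448 held 2, which is under the floor of 3 reads. Drought reads were thus spread over several AWPM-19-like isogroups, with most in a single one. Bread wheat carries 3 related subgenomes, and the assembly does not say which copy an isogroup stands for.

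The isotigs of an isogroup can share contigs, and with them reads. In isogroup02733, isotig08653 (1120 bases) held 112 reads and isotig08654 (1139 bases) 108, out of 112 reads in all. In RPKM, which scales reads to isotig length and library size, these isotigs were at 333 and 315 in drought roots and at 0 in control roots. The pair of isogroup03048 had RPKM values of 204 and 209, that of isogroup03070 had 55.1 and 49.3, and isotig27589 of isogroup20448 (549 bases) had 12.1. The levels per length thus kept the order of the read counts between isogroups.

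All 7 isotigs aligned to the same part of the Arabidopsis protein, which has 186 residues. Their alignments began at residue 5 and ended between residues 138 and 180, with 58 to 61% identical residues and bit scores from 144 to 205. The shortest alignment was that of the short isotig27589, which ended at residue 138 and covered 72.0% of the protein. The best score belonged to isotig08654, with 108 of 176 aligned residues identical. The last residues of the Arabidopsis protein were outside every alignment. The deposited annotation gave this protein no GO term.

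**Figure D2:**
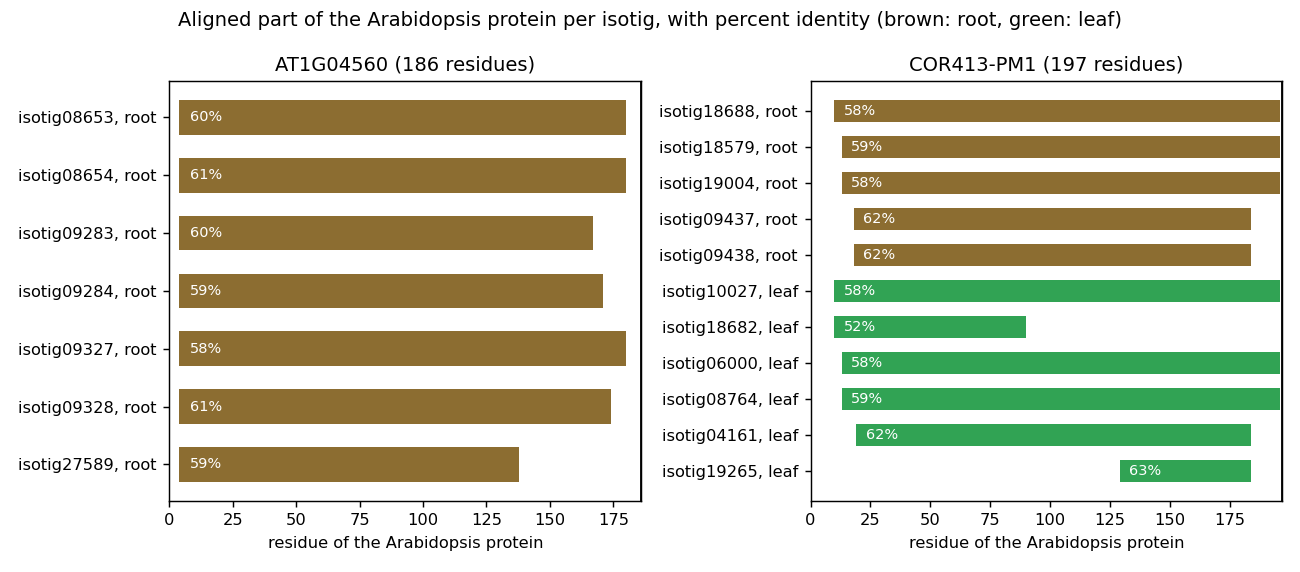
Stretch of the Arabidopsis protein covered by the alignment of each isotig (x axis, residue number), with 1 bar for each of the 18 isotigs in roots and leaves. The 7 AT1G04560 isotigs all begin at residue 5, and 2 short leaf isotigs of COR413-PM1 cover 40.6% and 27.9% of that protein while the other 9 cover at least 83.8%.

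COR413-PM1 was read in all 4 libraries and was higher under drought in both tissues. In roots it had 10 control and 60 drought reads, or 9.21 (4.42 to 16.9) and 62.6 (47.7 to 80.5) per 100000 gene reads. The root level was 6.79-fold higher under drought (95% exact interval 3.45 to 14.9), or 2.76 on the log2 scale. The 2 library intervals did not overlap. Of the 4785 root genes tested, 169, or 3.53%, had a ratio at least as high.

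In leaves COR413-PM1 had 21 control and 201 drought reads, or 25.2 (15.6 to 38.5) and 321 (278 to 368) per 100000 gene reads. The leaf level was 12.7-fold higher under drought (8.11 to 21.0), or 3.67 on the log2 scale, again with library intervals that did not overlap. Of the 2971 leaf genes tested, 36.5% were at least 2-fold higher and 16.3% at least 2-fold lower, and the median log2 ratio was 0.49. This lean depended on the scaling: with TMM factors 705 genes were higher and 786 lower, the median was -0.08, and COR413-PM1 was 8.57-fold higher. Relative to that median the log2 ratio of COR413-PM1 was 3.18, against 2.75 in roots relative to the root median. The leaf markers fell from 15528 to 3139 per 100000 gene reads in the same libraries, and their part in the ratio was not tested. Of the leaf genes tested, 85, or 2.86%, had a ratio at least as high as COR413-PM1.

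By level, COR413-PM1 came in the order drought leaves (321), drought roots (62.6), control leaves (25.2) and control roots (9.21 per 100000). The counting intervals of control roots and control leaves overlapped slightly, while those of the other neighbours in this order did not. AT1G04560 stood above COR413-PM1 in drought roots by reads, with 194 against 60. Per length the order was the same: the highest AT1G04560 isotig there, isotig08653, had an RPKM of 333, and the highest COR413-PM1 isotig, isotig18688, had 95.1.

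The root reads of COR413-PM1 came from 4 isogroups, each with more reads under drought. Reads of whole isogroups are given, which can exceed the reads counted for the gene. Isogroup03125 went from 5 to 20 reads (4.06-fold against all isogroup reads, 1.48 to 13.8), and isogroup11547 from 3 to 25 (8.46-fold, 2.58 to 43.8). Isogroup11863 went from 1 to 9 reads (9.14-fold, 1.27 to 400) and isogroup11438 from 1 to 7 (7.11-fold, 0.913 to 320). The intervals overlapped throughout, so the isogroups could not be ranked by their ratio, and that of isogroup11438 included 1.

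The leaf reads of COR413-PM1 came from 6 isogroups, again given with the reads of the whole isogroup. Isogroup06733 went from 9 to 72 reads (8.88-fold, 4.43 to 20.2), isogroup05470 from 4 to 68 (18.9-fold, 7.04 to 71.3) and isogroup02706 from 8 to 39 (5.41-fold, 2.49 to 13.4). These 3 held all COR413-PM1 reads of control leaves and most of those of drought leaves. Isogroup01434 had 0 control and 19 drought reads (at least 7.03-fold higher), of which 16 were counted for COR413-PM1. Isogroup15971 had 0 and 4 (at least 1.48-fold higher), and isogroup15388 had 0 and 2. In RPKM, isotig10027 of isogroup06733 went from 33.1 to 283, isotig08764 of isogroup05470 from 12.8 to 233, and isotig06000 of isogroup02706 from 14.6 to 76.4.

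The make-up of the leaf reads differed in point estimate between the conditions. Isotig08764 held 19.0% (5.45 to 41.9) of the COR413-PM1 gene reads in control and 33.8% (27.3 to 40.8) in drought leaves, and isotig06000 held 38.1% (18.1 to 61.6) and 19.4% (14.2 to 25.6). The intervals overlapped for both, with only 21 control reads, and a shift between copies was not tested. Counting all copies of both genes, 6 of 6 root isogroups with at least 10 reads were at least 2-fold higher under drought, where 23.9% of all root isogroups with that many reads were, and 4 of 4 were in leaves, against 29.8%. The genes were proposed for this contrast, so nothing is read from these shares.

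**Figure D3:**
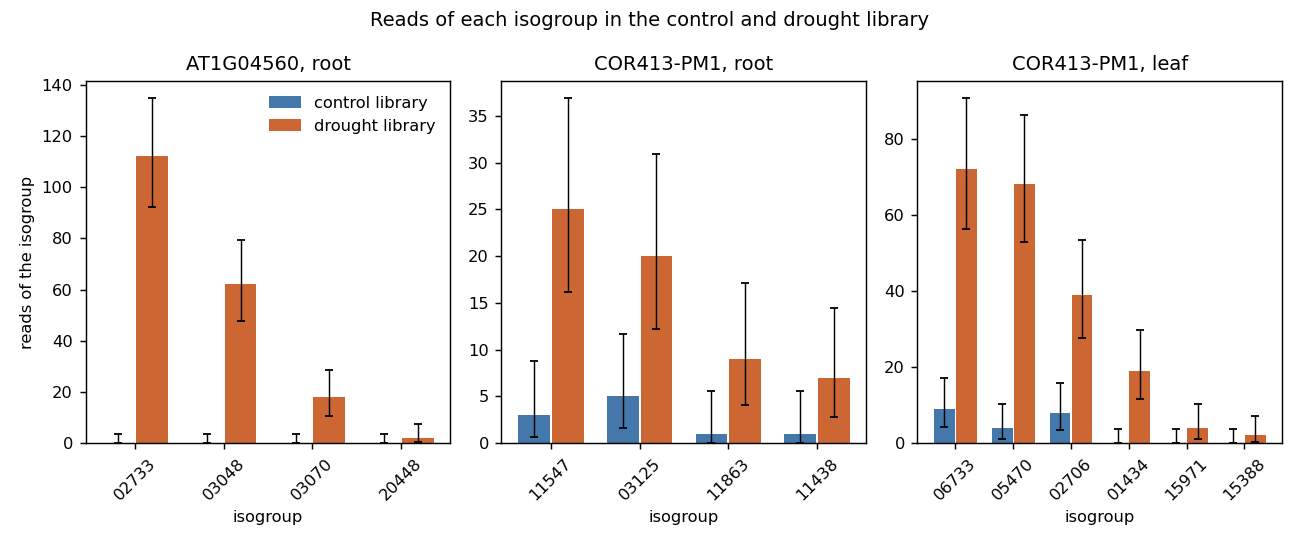
Reads (y axis, a scale for each panel) of each isogroup of AT1G04560 and COR413-PM1 in the control and the drought library, with 95% exact Poisson intervals as error bars. The 4 AT1G04560 isogroups have 0 control reads, and every isogroup has more reads in the drought library.

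The Arabidopsis COR413-PM1 protein has 197 residues, carries the COR413 family domain (Pfam PF05562), and is annotated by GO with the plasma membrane, the vacuole, cold acclimation, the response to ABA and the cellular response to water deprivation. Wheat isotigs matched it with 52 to 63% identical residues. In 3 cases a root and a leaf isotig had the same alignment, with equal bit score, identical residues and end points. Isotig18579 of roots and isotig08764 of leaves both had 110 of 186 residues identical, isotig18688 and isotig10027 both had 110 of 189, and isotig19004 and isotig06000 both had 109 of 186. The tables used here hold no nucleotide sequence of the isotigs, so whether the paired isotigs are the same transcript was not tested.

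The reads of these pairs are set side by side without a test. The pair of isotig18579 and isotig08764 had 1 and 7 reads in control and drought roots, and 4 and 68 in control and drought leaves. The pair of isotig18688 and isotig10027 had 3 and 25 reads in roots and 9 and 72 in leaves, and that of isotig19004 and isotig06000 had 1 and 9 reads in roots and 8 and 39 in leaves. Each isotig of these pairs thus had more reads under drought in its own tissue. Isotig27589, isotig18579 and isotig19265 aligned in a reverse frame, which gives only the direction in which they were assembled.

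Other members of the COR413 and AWPM-19-like families were scarce. Of 10 Arabidopsis loci in these families, 4 were measured in roots and 3 in leaves. Those with at least 10 reads were both named genes in roots, and COR413-PM1 and COR413IM1 in leaves. COR413IM1, of the chloroplast envelope branch, had 0 control and 4 drought reads in roots. In leaves it had 16 and 21 reads, 1.75-fold (0.869 to 3.58), an interval that included 1. AT5G18970, an AWPM-19-like gene, had 5 control reads and none in drought roots, the direction opposite to that of AT1G04560, at a count under the minimum of 10 reads. AT4G37220, of the COR413 family, had 0 and 7 leaf reads, all on isotig04160 of isogroup01434, which also holds the COR413-PM1 isotig04161 with 16 reads, and 19 reads in all. The 7 and 16 reads together exceed those 19, so some reads were counted on both isotigs. The match of isotig04160 to AT4G37220 spanned only 42 residues, or 20.8% of that protein.

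A list of 22 other stress-induced membrane proteins held 6 genes with at least 10 reads in roots and 3 in leaves. Of these, 3 were at least 2-fold higher in drought roots (2 when scaled to library reads) and 3 in drought leaves (2 with TMM factors), and none was at least 2-fold lower. Their median log2 ratio was 0.88 in roots and 1.94 in leaves, beside 0.02 and 0.49 for all genes tested. Over all genes tested, 21.8% in roots and 36.5% in leaves were at least 2-fold higher, and 25.0% and 16.3% at least 2-fold lower. The minimum of 10 reads bears on the counts of this list. HVA22E passed it in leaves through its 10 drought reads alone, while RCI2A and AT4G30660, with 9 control and 0 drought reads each in leaves, and HVA22G, with 9 and 0 in roots, missed it by 1 read and ran the other way. HVA22J with 5 and 1 root reads and RCI2B with 3 and 1 leaf reads were also below it. AT2G38905, of the family of small hydrophobic RCI2 (PMP3) proteins induced by cold and salt, had 7 and 23 root reads (3.72-fold, 1.54 to 10.3) and 23 and 48 leaf reads (2.78-fold, 1.66 to 4.78). ERD4, a membrane protein first found as induced early by dehydration, had 9 and 17 root reads (2.14-fold, 0.901 to 5.44) and 9 and 26 leaf reads (3.84-fold, 1.75 to 9.33). HVA22E, of a family of ABA-induced proteins of the endoplasmic reticulum first described in barley, had 6 and 14 root reads (2.64-fold, 0.953 to 8.38) and 0 and 10 leaf reads (at least 4.44-fold higher).

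A list of 14 soluble proteins regulated by cold and ABA held 2 such genes in roots and 4 in leaves. Of these, 1 was at least 2-fold higher in drought roots and 4 in drought leaves, with median log2 ratios of 2.74 and 2.06. Among all genes tested, 21.8% in roots and 36.5% in leaves were at least 2-fold higher, and the medians were 0.02 and 0.49. LTI65 passed the minimum of reads in both tissues through the drought library alone. The root median is that of ERD10 and LTI65 only, and the ratio of LTI65 is a lower bound. ERD10, a dehydrin, had 75 and 120 root reads (1.81-fold, 1.35 to 2.45) and 44 and 233 leaf reads (7.05-fold, 5.09 to 9.96). LTI65, also called RD29B and widely used as a reporter of ABA responses, had 0 and 65 root reads (at least 24.5-fold higher) and 0 and 12 leaf reads (at least 5.32-fold higher). RD22, another dehydration-responsive gene, had 15 and 37 leaf reads (3.28-fold, 1.76 to 6.44). LTI65 thus lacked control reads in roots as AT1G04560 did, but was read in drought leaves.

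The proton pumps of the plasma membrane (HA genes, also written AHA) served as a list of membrane proteins not defined by stress. Of its 11 members, 2 had at least 10 reads in roots and 1 in leaves. None of these was at least 2-fold higher, and HA11 was 2.16-fold lower in drought roots (1.36 to 3.52), with 66 and 27 reads. Over all genes tested, 21.8% in roots and 36.5% in leaves were at least 2-fold higher, and 25.0% and 16.3% at least 2-fold lower. HA2, the pump with most reads, had 175 and 237 root reads (1.53-fold, 1.26 to 1.87), and in leaves 112 and 65 (1.29-fold lower, 0.945 to 1.79). The remaining pumps were below the minimum of reads: in leaves HA11 had 2 and 7 reads, the direction opposite to roots, HA9 had 3 and 4, HA6 and HA8 had 0 and 4 each, and HA5 had 1 and 2, and in roots HA3 had 2 and 0. These lists were drawn up with earlier results of these data known, and their counts are descriptions of these libraries.

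**Figure D4:**
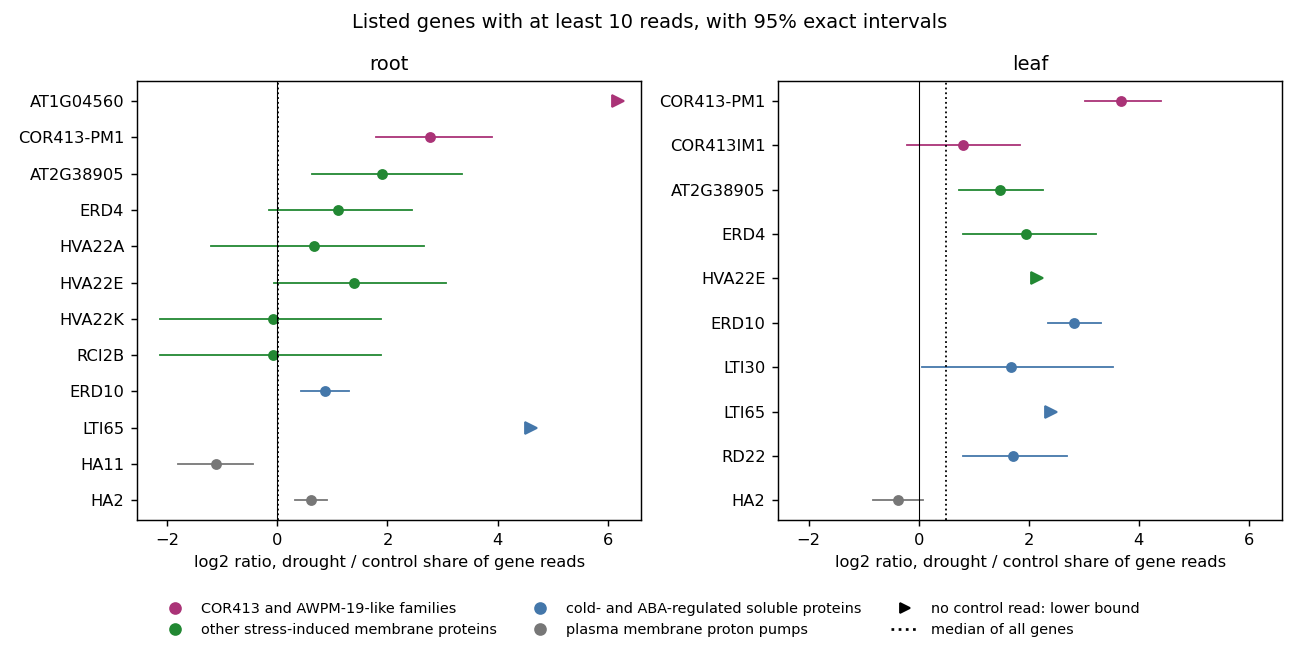
Log2 ratio of drought to control levels (x axis) of each gene with at least 10 reads in the 4 lists, in roots and leaves, coloured by list. A dotted line stands at the median of all genes tested (0.02 in roots, 0.49 in leaves). Genes without control reads are drawn at their lower bound. AT1G04560 at 6.19 lies farthest to the right in roots, and COR413-PM1 at 3.67 does so in leaves.

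Among 1633 genes with at least 50 reads over the 4 libraries, those with the pattern most like each gene were ranked by the Euclidean distance of their centred log2 levels over these libraries. For AT1G04560 these were SAG29 (distance 0.47), AT3G21000 (0.93), AT4G36600, a LEA protein (1.23), AT5G46960 (2.14) and ARK3, a kinesin (2.44). None of the 5 had a leaf read, and they had 0, 0, 0, 1 and 3 reads in control roots and 133, 92, 72, 71 and 188 in drought roots. Each reached the minimum of 50 reads by its drought root reads alone. The genes nearest to AT1G04560 and to COR413-PM1 were picked by these same counts, so their shared pattern describes the selection. For COR413-PM1 the closest were AT4G31340 (0.72), HAB1 (1.10), HAI2 (1.11), BAM1 (AT3G23920), a beta-amylase (1.19), and AT5G61820 (1.40). HAB1 and HAI2 are protein phosphatases 2C that act as negative regulators of ABA signalling. HAB1 had 6 and 38 root reads and 5 and 73 leaf reads, and HAI2 had 5 and 19 root reads and 9 and 38 leaf reads.

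AT1G04560 and COR413-PM1 were 7.48 apart on this scale. In the order of likeness to AT1G04560, COR413-PM1 stood at place 901. The genes thus shared the direction under drought in roots but not the pattern over the tissues, since COR413-PM1 had most of its reads in drought leaves and AT1G04560 had none there.

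**Figure D5:**
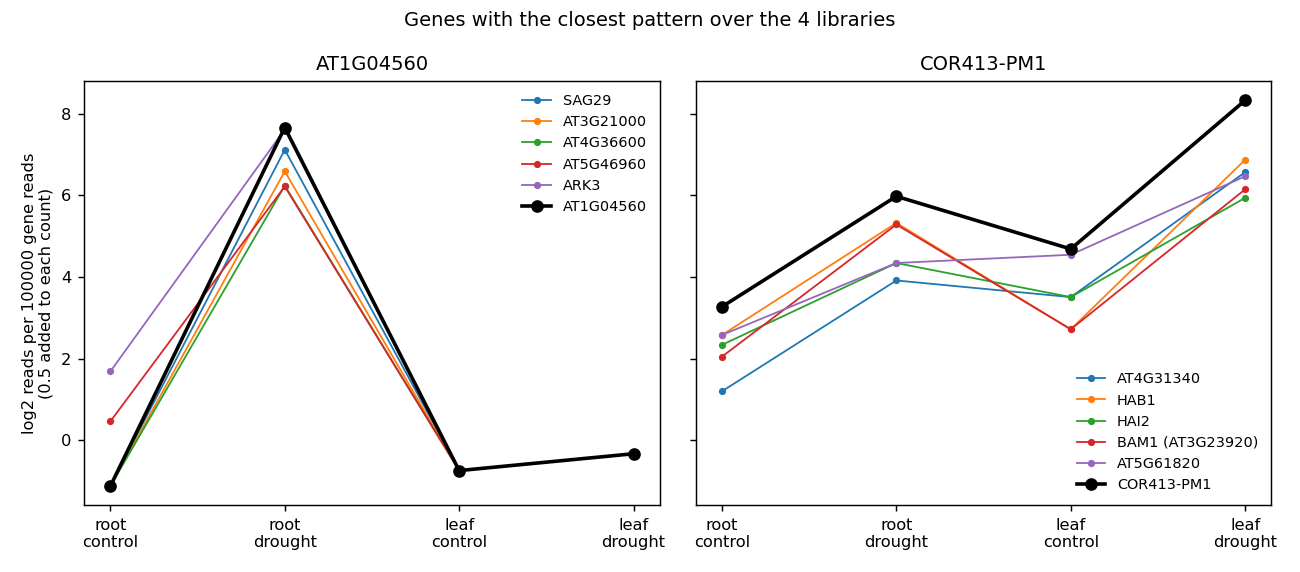
Level in each of the 4 libraries (reads per 100000 gene reads, log scale) of AT1G04560 and COR413-PM1 and of the 5 genes with the smallest distance to each, with 0.5 added to each count. The group of AT1G04560 stands high only in drought roots, and that of COR413-PM1 is higher under drought in both tissues. Both groups were picked for their likeness over these same libraries.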

How the data were processed

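Root and leaf RNA of control and drought plants was sequenced as 4 libraries, 1 per group. The authors assembled both libraries of a tissue jointly and deposited counts of reads for every isotig and isogroup, with RPKM values made from them. The deposited RPKM equals reads scaled by isotig length and library reads (library reads of 305731 and 300665 in control and drought roots, 319997 and 299134 in leaves). The authors also deposited, for the best Arabidopsis match of each isotig, the bit score, E-value and percent of identical residues. Tables of the authors' own comparisons (log2 ratios, z-scores, p-values) and summed GO weights were not used. The MARS test of the study compares 2 libraries only and was not run.

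Isotigs with an Arabidopsis match at an E-value of up to 0.001 were summed to genes by locus, taking for each gene the isotig with most reads of each isogroup. Genes with at least 10 reads in a tissue were screened for a ratio of at least 2-fold. Ratios have 95% exact intervals conditional on the sum of both counts, and shares have exact Clopper-Pearson intervals. A count of 0 was set against 3 reads per library.

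The genes described, the lists and these choices were made with earlier results of these data known. Lists were matched by locus, decided after the data were seen, since RAB18 names another gene in the annotation. Named were every isotig of both genes, every measured relative in their families and up to 3 genes of each other list with most reads. LEA14 and AT3G15670 were named as genes without control reads (chosen after their values were seen), and so were the 5 nearest genes by pattern. Some genes of the membrane protein list and the remaining pumps, at counts below the minimum of reads, were named too. The root markers TIP2;3 and MYB305 were also named. Alternatives were other totals, TMM (edgeR 4.0.16 in R 4.3.3), size factors from DESeq2 1.42.0 (which came to 1 in every library), all isotigs summed, the top isotig alone, whole isogroup reads, an E-value of 1e-10, 0.5 added to counts, and a minimum of 20 reads or 1 read. Python 3.11.15 with numpy 2.4.6, scipy 1.17.1, pandas 2.3.3 and matplotlib 3.10.9 was used. The available table of wheat genes was not joined, because isotigs carry no wheat gene identifier, so no genome position is given.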

Additional observations from a re-analysis of the deposited data

How the results depend on the processing

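The 10 alternatives left COR413-PM1 within its counting interval, from 5.49 to 9.02-fold in roots and from 8.57 to 17.9-fold in leaves. AT1G04560 in roots stayed at least 40.4-fold higher: 6 alternatives of 10 moved it little, while it was 59.1-fold with isotig column totals, 134-fold with all isotigs summed, 40.4-fold with the top isotig alone and 440-fold with 0.5 added to each count. The last of these depends on the added count and is no bound. Alternatives for AT1G04560 in leaves were not run, since it had no isotig there.

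Background counts followed the minimum of reads. With at least 20 reads, 530 root genes were higher and 653 lower (1044 and 1196 with 10), and 470 leaf genes higher and 263 lower (1083 and 483). With at least 1 read, 2261 root genes were higher and 2456 lower, and 2690 leaf genes higher and 1314 lower. TMM gave 705 higher and 786 lower in leaves, and size factors gave 726 lower. The share of higher among called genes was 46.6% in roots (34.6% with isotig column totals) and 69.2% in leaves (58.4% with isogroup read totals, 56.6% with library reads, 47.3% with TMM, 53.2% with size factors). The median log2 ratio in leaves was -0.08 with TMM.

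No paired analysis was possible because each group has 1 library. With 1 library per group, the spread between plants is unknown.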

Other observations

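Of the singletons, 1 of roots matched AT1G04560, and 1 matched the COR413 family, though not COR413-PM1 itself. Singletons carry no library label, so neither is tied to a library. Other reads outside the isogroup counts were not searched for either gene. Isogroup reads numbered 202624 beside 305731 library reads in control roots, and 199622 beside 300665 in drought roots.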
